A study of Mus musculus with 93 samples.

Results

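Forkhead transcription factors named for roles in mesoderm and its neighbours were followed here as 1 gene set. The 10 members, Foxc1, Foxc2, Foxf2, Foxd1, Foxp1, Foxp2, Foxp4, Foxo1, Foxh1 and Foxa2, were taken by name from the 24514 gene symbols of the count table. The table holds 93 libraries, each made from 10 sorted mouse cells, and serves to compare the first and second heart fields in embryos and in spheroids. All cells carry the same 3 alleles, Hcn4-GFP, Tbx1-Cre and the Cre reporter Ai9, so that GFP marks cells expressing Hcn4 when they were sorted, whereas RFP permanently labels any cell with past or present Tbx1-Cre activity, whether or not it still expresses Tbx1. The 4 groups are in vivo GFP+ (5 libraries) and in vivo RFP+ (4 libraries), sorted from dissected embryos given as embryonic day 7.75 in the study's methods and 8.5 in the sample titles, and in vitro GFP+ (38 libraries) and in vitro RFP+ (46 libraries), sorted at day 5.5 from spheroids of an embryonic stem cell line derived from blastocysts of the same genotype. The spheroids were induced with Activin A and Bmp4 and come from that line alone. Wells are not assigned to embryos or differentiations in the labels, so n counts wells, and p-values measure the spread between wells, which may be technical.

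Forkhead factors bind DNA through a shared winged helix domain, and the letter after Fox names the subfamily. Foxc1 and Foxc2 act together in paraxial and pharyngeal mesoderm, in the second heart field and in vessels, and Foxh1 carries Smad proteins of the Nodal and Activin pathway to their target genes in the early embryo. Foxp and Foxo proteins are expressed in many tissues, the former mostly as repressors and the latter as factors that insulin and growth factor signalling removes from the nucleus, while Foxa2 is a pioneer factor best known from endoderm, node and notochord rather than from mesoderm.

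Of the members, 7 have a promoter in the RefSeq table for GRCm38.p6, and Foxc2, Foxp2 and Foxh1 do not. The bases before the annotated start are shown for Foxc1 and Foxd1, which were both called higher in RFP+ cells in vitro, and for Foxo1, which had no read in any in vivo GFP+ library. They lie on the plus strand at chr13:31806396-31806632 (Foxc1), chr13:98353995-98354241 (Foxd1) and chr3:52268087-52268335 (Foxo1), and capitals mark the CCAAT box as CCAAT or, on the other strand, ATTGG.
Foxc1: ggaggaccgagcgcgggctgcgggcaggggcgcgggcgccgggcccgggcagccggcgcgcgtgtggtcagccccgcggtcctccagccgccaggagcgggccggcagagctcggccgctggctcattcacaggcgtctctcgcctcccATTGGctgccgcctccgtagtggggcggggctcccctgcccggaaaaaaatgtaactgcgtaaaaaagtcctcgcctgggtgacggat
Foxd1: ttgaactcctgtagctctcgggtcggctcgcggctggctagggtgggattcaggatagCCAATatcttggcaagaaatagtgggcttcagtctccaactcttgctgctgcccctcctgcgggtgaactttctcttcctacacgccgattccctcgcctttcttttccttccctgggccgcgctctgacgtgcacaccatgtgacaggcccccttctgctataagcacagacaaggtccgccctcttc
Foxo1: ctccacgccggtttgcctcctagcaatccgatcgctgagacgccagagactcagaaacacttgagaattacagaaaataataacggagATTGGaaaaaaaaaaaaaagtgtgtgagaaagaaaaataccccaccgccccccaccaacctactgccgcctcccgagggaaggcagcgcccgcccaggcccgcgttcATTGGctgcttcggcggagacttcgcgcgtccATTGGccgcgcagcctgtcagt
Foxc1 and Foxd1 held 1 CCAAT match each and Foxo1 held 3. The windows were also searched on both strands for the forkhead motif GTAAACA and the TATA box TATAAA, and no match of 1 motif overlapped a match of another. Over all 11 windows of the 7 members, 5 windows held CCAAT, 1 window of Foxa2 held TATAAA and 0 held GTAAACA, whereas 33.8%, 12.4% and 3.17% of the 32851 promoters of the table held these letters within 250 bases before the start. The GC content of the shown windows was 72.6% in Foxc1, 57.1% in Foxd1 and 55.8% in Foxo1, beside a median of 52.4% over all promoters.

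Between 712732 and 2525460 reads were counted per in vivo GFP+ library and between 1246546 and 1479957 per in vivo RFP+ library. In vitro totals ran from 828193 to 4371849 in GFP+ libraries, apart from well C9 with 6288 reads, and from 445071 to 5658882 in RFP+ libraries. In vivo GFP+ libraries held reads of 6189 to 8302 genes and in vivo RFP+ libraries of 10263 to 13052. The sort genes followed the labels, with Hcn4 at 14.9 ± 16.7 CPM (SD, n = 5) in GFP+ and 0.3603 ± 0.721 (n = 4) in RFP+ libraries in vivo, and Tbx1 with no read in the in vivo GFP+ group. In vitro Hcn4 was at 7.32 ± 4.42 CPM (n = 38) and 0.447 ± 0.672 (n = 46), and Tbx1 had reads in 2 of 38 GFP+ and 41 of 46 RFP+ libraries. On the plate, spheroid RFP+ cells took columns 1 to 6 and spheroid GFP+ cells columns 7 to 11, and the effect of position cannot be told apart from that of population. In 7 plate rows the in vitro RFP+ wells of columns 3 and 4 were nearly alike (chi-square per degree of freedom 1.36 to 2.41, against 4.33 to 5.94 for columns 3 and 5). They still differed beyond counting noise and were kept apart. Levels below are counts per 1000000 reads with TMM scaling (CPM), and in wells of 10 cells, fewer expressing cells and less RNA per cell cannot be told apart.

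In embryos, Foxc2, Foxd1, Foxo1 and Foxp4 were higher in every RFP+ library than in any GFP+ library, and Foxh1 was higher in every GFP+ library. Groups that do not overlap were found in 13.9% of the 15111 genes with a read in either population, 11.9% higher in RFP+ and 2.03% higher in GFP+. In spheroids, Foxc1, Foxc2, Foxd1, Foxp1, Foxp2, Foxh1 and Foxa2 were called higher in RFP+ cells and no member was called higher in GFP+ cells. Foxh1 therefore lay on opposite sides in the 2 sources. The test was edgeR's quasi-likelihood F-test at a Benjamini-Hochberg adjusted p under 0.1, the level used by the study.

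The test called 2 of the 3 members that passed the low-count filter in vivo, where 10.1% of 8503 genes were called. Foxc2 was higher in RFP+ cells, as were 6.21% of genes, and Foxh1 was higher in GFP+ cells, as were 3.88%. With no read in any GFP+ library, Foxc2 passed this filter through RFP+ libraries alone, so nothing is read from the 2 of 3. In vitro the test called 7 of 8. In vitro, 77.9% of 9940 genes were called, so 7 of 8 is near the background. The 7 were higher in RFP+, as were 37.8% of all genes tested, and 0 in GFP+, as were 40.1%. Foxc1, Foxc2, Foxd1 and Foxa2, however, were so low in GFP+ wells that they passed the filter through RFP+ wells. Nothing is read from the count. The filter removed 7 members in vivo, of which 4 had no read in the GFP+ group. In all, 5 members (Foxc2, Foxf2, Foxd1, Foxo1 and Foxa2) had no read in any in vivo GFP+ library, as had 26.2% of the genes with a read in either population. In vitro all 10 had a read in some GFP+ library, and 3.52% of genes had none. The smaller number of genes detected in in vivo GFP+ libraries moves with these zeros, and its part in the result was not tested. Every member was also tested alone on log2 CPM, by an exact permutation test in vivo, whose smallest possible p is 0.00794, and with 100000 resamples in vitro, whose smallest is 1e-05. These 20 two-sided tests are unadjusted.

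**Figure D1:**
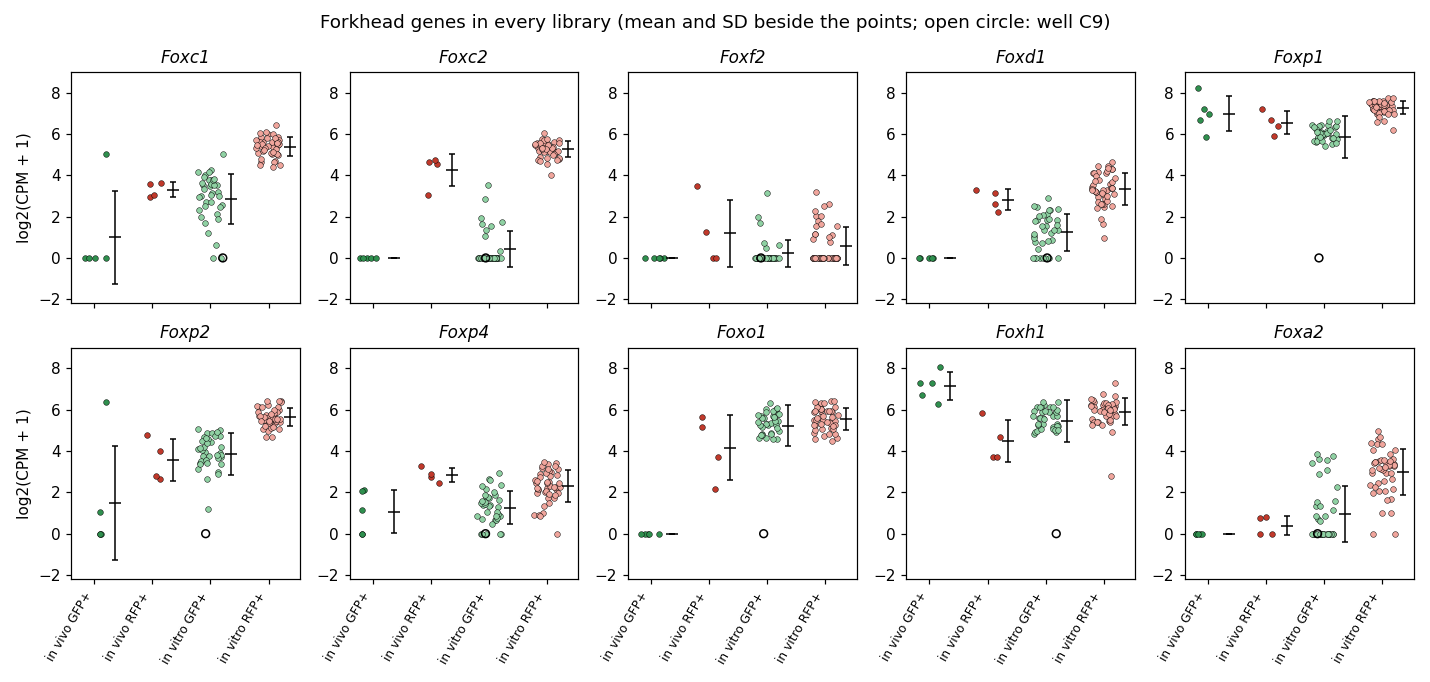
Level of each member in every library as log2(CPM + 1), by group (5, 4, 38 and 46 libraries), with the group mean and SD beside the points and well C9 as an open circle. Foxc2 points of the RFP+ groups lie above every GFP+ point in both sources, and Foxh1 is the member with every in vivo GFP+ point above the in vivo RFP+ points.

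Foxc1 and Foxc2 are single-exon genes at chr13:31806633-31812476 and chr8:121116171-121118895 (GRCm38, plus strand). Foxc2 had no read in the 5 in vivo GFP+ libraries, and the RFP+ libraries held 7.37, 22.5, 25.6 and 23.8 CPM in wells F12, G11, G12 and H11. Well F12 was the low one, and no RFP+ library came near 0. Against a floor of 3 counts per library, which averaged 2.58 CPM over the GFP+ group and covers counting error only, the RFP+ mean of Foxc2 was at least 7.69-fold higher (at least 6.94-fold without G12; edgeR's adjusted p = 0.0122, exact permutation p = 0.00794). In spheroids Foxc2 was detected in 9 of 38 GFP+ libraries, with a median of 0 and a highest value of 10.3 CPM, and in 46 of 46 RFP+ libraries, from 15.2 over a median of 38.8 to 64.4 CPM. The populations did not overlap, which was true of 0.944% of 21827 genes. In the fit, RFP+ cells were higher by a log2 fold change of 5.56 (SE 0.27, edgeR's adjusted p = 1.32e-34, permutation p = 1e-05).

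Foxc1 gave a less even picture in embryos. Well B12 alone among the GFP+ libraries held Foxc1, at 31.4 CPM from 72 reads, and the RFP+ libraries held 11.05, 11.3, 6.83 and 7.21 CPM (F12, G11, G12, H11). So 4 of 4 RFP+ libraries lay above the GFP+ median of 0 and none above the library of well B12, and the groups overlapped (exact permutation p = 0.111, n = 5 and 4). Well B12 is also the in vivo GFP+ library of highest total count, with 8302 genes detected. In spheroids Foxc1 ran from 0 over a median of 7.57 to 32.0 CPM in GFP+ and from 20.1 over 43.2 to 85.3 CPM in RFP+ libraries. Of the RFP+ libraries, 35 of 46 exceeded the highest GFP+ one, and the log2 fold change was 2.22 (SE 0.17, edgeR's adjusted p = 3.11e-21).

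Foxf2, a partner of Foxf1 in lateral and splanchnic mesenchyme, was near the detection limit throughout. In vivo it had reads in 2 RFP+ libraries only, 10.1 CPM in H11 and 1.41 CPM in G11, and none in GFP+ libraries (exact permutation p = 0.167). In vitro 6 of 38 GFP+ and 16 of 46 RFP+ libraries held a read, the highest at 7.83 and 7.99 CPM, and a difference was not called because the gene did not pass the filter (permutation p = 0.0426, unadjusted). Its mean in vivo RFP+ level of 2.87 CPM rested on H11, without which it was 0.469 CPM.

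Foxd1, a factor of kidney stroma and head mesenchyme at chr13:98354242-98359305, had no read in the in vivo GFP+ libraries and 8.84, 7.75, 5.13 and 3.60 CPM in F12, G11, G12 and H11. All 4 RFP+ libraries were positive, on 5 to 12 reads each, so that the level was at least 2.46-fold higher (at least 2.13-fold without F12; exact permutation p = 0.00794). The gene was below edgeR's filter, and DESeq2, which tested it, gave an adjusted p of 0.0108. In vitro Foxd1 ran from 0 over 1.57 to 6.50 CPM in GFP+ and from 0.979 over 9.06 to 24.1 CPM in RFP+ libraries. The log2 fold change was 2.36 (SE 0.25, edgeR's adjusted p = 9.18e-15), and 34 of 46 RFP+ libraries exceeded every GFP+ library. With the near-identical wells of columns 3 and 4 summed, Foxd1 did not pass the filter.

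Foxp1 and Foxp2, on chromosome 6, and Foxp4, on chromosome 17, are the Foxp members measured here. Foxp1 was among the most abundant members in counts, with 100.5, 147, 122, 57.6 and 298 CPM in in vivo GFP+ wells A12 to E12 and 81.8, 102, 58.9 and 147 CPM in RFP+ wells F12, G11, G12 and H11. Gm20696, a gene of the annotation on the same strand, shares 300 exon bases with Foxp1. The embryonic groups overlapped over much of their range (log2 fold change -0.64, SE 0.60, edgeR's adjusted p = 0.766). In spheroids GFP+ libraries other than C9 held 41.3 to 96.7 CPM (median 62.4, n = 37) and RFP+ libraries 72.9 to 213 CPM (median 158), and 44 of 46 RFP+ libraries exceeded every GFP+ library. Foxp1 had a log2 fold change of 1.20 (SE 0.07, edgeR's adjusted p = 4.55e-30).

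Foxp2, which shares its binding domain with Foxp1, was again uneven in embryonic GFP+ cells, with 82.3 CPM in well B12, 1.06 CPM in E12 and no read in A12, C12 and D12. The RFP+ libraries held 5.16, 26.1, 5.98 and 15.1 CPM (F12, G11, G12, H11), all below B12 and above the other GFP+ libraries (exact permutation p = 0.206). In vitro GFP+ libraries other than C9 held 1.26 to 32.7 CPM (median 14.5) and the RFP+ libraries ran from 24.2 over 46.8 to 84.1 CPM. Foxp2 had a log2 fold change of 1.59 (SE 0.13, edgeR's adjusted p = 8.80e-20), with 41 of 46 RFP+ libraries above every GFP+ one.

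Foxp4 was low but ordered in embryos, with 3.28, 0, 1.24, 0 and 3.18 CPM in GFP+ wells A12 to E12 and 4.42, 5.63, 8.54 and 6.49 CPM in the RFP+ wells. The groups did not overlap (exact permutation p = 0.0238, unadjusted), on 7 reads over all GFP+ and 33 over all RFP+ libraries, while DESeq2 gave an adjusted p of 0.386. In vitro the mean was 1.80 ± 1.62 CPM (SD, n = 38) in GFP+ and 4.56 ± 2.60 CPM (n = 46) in RFP+ libraries, with 40 RFP+ libraries above the GFP+ median (permutation p = 1e-05). Foxp4 did not pass edgeR's filter in either source, and DESeq2, which tested it in vitro, gave an adjusted p of 3.59e-07.

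Foxo1, a factor that insulin and growth factor signalling controls through Akt, lies at chr3:52268336-52353221. It had no read in the in vivo GFP+ libraries and 34.6, 12.0, 3.42 and 49.7 CPM in F12, G11, G12 and H11. The RFP+ libraries spread widely, from 4 reads in G12 to 69 in H11, and all were above the GFP+ group. The RFP+ mean was at least 9.67-fold higher, and at least 6.47-fold higher without H11 (exact permutation p = 0.00794, DESeq2's adjusted p = 0.000157). It was below edgeR's filter in the embryo and passed it only without G12 among the libraries left out, at an adjusted p of 0.0348. An antisense transcript of the annotation, Gm20402, shares 674 exon bases with Foxo1, and reads of either within these bases cannot be told apart in these counts. In spheroids no difference was called: GFP+ libraries other than C9 held 22.8 to 80.0 CPM (median 41.9) and RFP+ libraries 21.5 to 85.6 CPM (median 46.2), with a log2 fold change of 0.15 (SE 0.11, edgeR's adjusted p = 0.203). The permutation test on log2 CPM gave p = 0.0414, unadjusted, and 29 of 46 RFP+ libraries lay above the GFP+ median. Without the low-count filter edgeR called it higher in RFP+ cells (log2 0.21, adjusted p = 0.0977).

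Endothelial markers also moved with the embryonic contrast in which Foxc2 and Foxo1 differed. In GFP+ libraries 4 of 7 had a read, with a summed level of 0 to 89.6 CPM and Pecam1, Cdh5 and Emcn at 0, and in RFP+ libraries all 7 had reads, with 56.4 to 371 CPM. Cardiomyocyte markers moved the other way, at 15454 to 43502 CPM in GFP+ and 1097 to 1918 CPM in RFP+ libraries, with reads of 7 of 7 in each. Blood markers were at most 2.61 CPM in GFP+ libraries and reached 773 CPM in 1 RFP+ library, with Hba-a1 and Gata1 at 0 in both. Neural markers (1 of 6 and 6 of 6 detected) summed to 0 to 7.64 and 20.2 to 82.5 CPM, and neural crest markers (1 of 4 and 3 of 4) to 0 to 45.1 and 6.49 to 12.0 CPM. Heart field progenitor markers summed to 867 to 2282 CPM in GFP+ and 243 to 305 CPM in RFP+ libraries. The part of these markers in the Fox gene differences was not tested.

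Foxh1, the Smad partner of the Nodal pathway, was the 1 member called higher in embryonic GFP+ cells. Wells A12 to E12 held 155, 156, 77.1, 104 and 267 CPM, and F12, G11, G12 and H11 held 24.3, 12.0, 12.0 and 55.5 CPM. The lowest GFP+ library lay above the highest RFP+ library. The log2 fold change was -2.60 (SE 0.77, edgeR's adjusted p = 0.0583, exact permutation p = 0.00794). Leaving out E12, F12, G11 or G12 took it past the threshold, at adjusted p of 0.136, 0.155, 0.199 and 0.153, with log2 fold changes of -2.28, -2.56, -2.35 and -2.35.

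In spheroids Foxh1 was slightly higher in RFP+ cells. GFP+ libraries other than C9 held 26.8 to 82.9 CPM (median 48.0) and RFP+ libraries 5.93 to 153 CPM (median 63.4), so the ranges overlapped, and 34 of 46 RFP+ libraries lay above the GFP+ median. The log2 fold change was 0.31 (SE 0.11, edgeR's adjusted p = 0.0082; permutation p = 0.00473, unadjusted).

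Foxh1 lies on the minus strand at chr15:76668225-76669948 in 3 exons of 1365 bases, and its 3′ end faces that of Kifc2, a kinesin gene on the plus strand at chr15:76659858-76668196, with 28 bases between them. Kifc2 was also the gene most like Foxh1 across the spheroid libraries. The nearest gene was looked up for every member after the values had been seen. Within groups, Pearson's r of log2 CPM between Foxh1 and Kifc2 was 0.72 over 37 in vitro GFP+ libraries without C9 and 0.73 over 46 in vitro RFP+ libraries. For the other 9 members, r with the nearest gene of the table ran from -0.28 to 0.27 where it could be computed.

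The Kifc2 level in embryos was 52.3 ± 25.4 CPM (SD, n = 5) in GFP+ libraries, from 29.9 to 92.2, and 6.14 ± 4.798 CPM (n = 4) in RFP+ libraries, from 0.854 to 12.3, and these did not overlap either. Kifc2 had a log2 fold change of -3.13 (SE 1.30, edgeR's adjusted p = 0.227). The ratio of Foxh1 to Kifc2 counts was 2.51 to 3.84 over the 5 in vivo GFP+ libraries, and its median was 2.84 there, 2.77 in in vitro GFP+ and 2.72 in in vitro RFP+ libraries. In vivo RFP+ libraries, with 1 to 17 Kifc2 reads, gave 1.70 to 14. Reads that belong to Kifc2 transcripts but fall within Foxh1 cannot be told apart from Foxh1 reads in these counts.

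**Figure D2:**
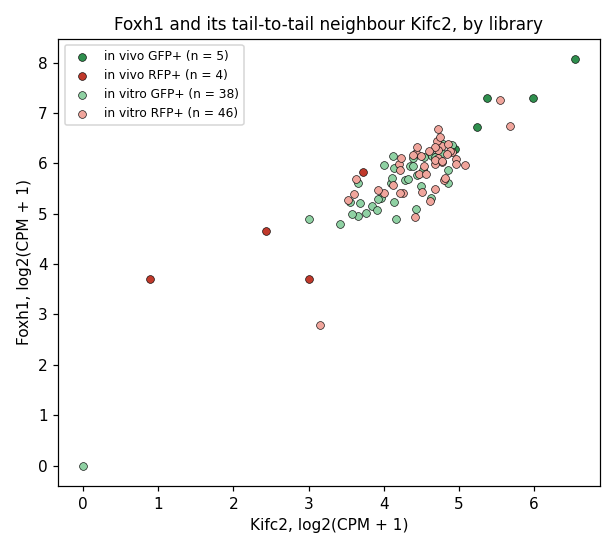
Foxh1 against Kifc2 in each of the 93 libraries, both as log2(CPM + 1), coloured by group. Within both spheroid groups the genes rise together (r = 0.72 and 0.73). Of the in vivo GFP+ libraries, C12 lies among the spheroid wells and E12 lies above all of them in both genes. In Foxh1, 3 of the 4 in vivo RFP+ libraries lie below all spheroid wells other than A2 and C9, and C9 is at 0 for both genes.

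Foxa2 was all but absent in embryonic cells, with no read in GFP+ libraries and 1 read each in F12 (0.737 CPM) and G11 (0.704 CPM), under the floor of 3 counts (exact permutation p = 0.167). In spheroids it was detected in 17 of 38 GFP+ libraries (median 0, highest 13.4 CPM) and in 44 of 46 RFP+ libraries (median 8.49, highest 30.2 CPM). The log2 fold change was 1.88 (SE 0.37, edgeR's adjusted p = 3.91e-06), and 9 RFP+ libraries exceeded every GFP+ library.

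Markers of cells known for Foxa2 were read beside it. Endoderm markers had reads for 9 of 9 genes in both spheroid populations and summed to 176 to 696 CPM in GFP+ and 37.3 to 386 CPM in RFP+ libraries. Of the 3 tested, the epithelial genes Cldn6 (-1.50, SE 0.13) and Epcam (-2.13, SE 0.13) were lower in RFP+ cells and Cer1 was higher (2.17, SE 0.41), named after their values were seen. Notochord markers had reads for 5 of 5 and summed to 0 to 79.7 and 14.3 to 143 CPM. In embryos 1 of 9 endoderm markers was read in GFP+ libraries (0 to 21.4 CPM) and 6 of 9 in RFP+ libraries (9.37 to 653 CPM, with Cer1, Afp and Shh at 0), and notochord markers summed to 0 to 50.1 and 0.737 to 40.1 CPM with Noto and Shh at 0. Within groups the r of Foxa2 with the summed notochord level was 0.54 over 37 GFP+ and 0.40 over 46 RFP+ wells, and with the endoderm level 0.52 and 0.21. The wells share depth and plate with each other, and the part of such cells in the Foxa2 difference was not tested.

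**Figure D3:**
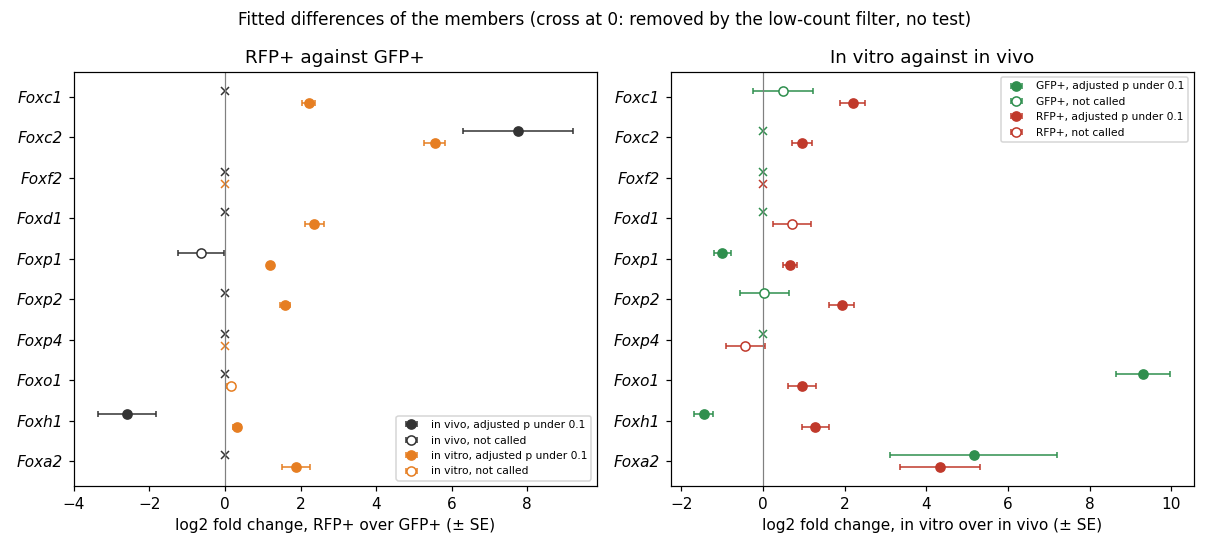
Fitted log2 fold change with its SE for each member, RFP+ over GFP+ (left; in vivo and in vitro) and in vitro over in vivo (right; GFP+ and RFP+). Filled points passed an adjusted p of 0.1, and crosses mark members below the low-count filter, 7 of them in vivo on the left; Foxh1 is at -2.60 in vivo and 0.31 in vitro, and the far points of Foxc2, Foxo1 and Foxa2, set against groups with no read, depend on the prior count.

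Whether the population difference itself differed between embryo and spheroid was tested by the difference of the separately fitted fold changes. Of the 3 members in both fits, 0 were called (background 5.26% of 8182 genes, 2.1% above and 3.15% below 0), and 2 had an unadjusted p under 0.05. The difference, in vitro minus in vivo, was 2.92 for Foxh1 (SE 0.78, adjusted p = 0.119 in the edgeR fits), 1.85 for Foxp1 (SE 0.61, adjusted p = 0.232) and -2.21 for Foxc2 (SE 1.48, adjusted p = 0.718). So the opposite directions of Foxh1 were not shown to differ at this threshold. An interaction term in 1 fit over all groups, which gives every group the same spread, called 6 of 9 members, including Foxh1 and Foxp1.

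The spheroid cells were then set against embryonic cells of the same colour, a contrast that includes plate position, source and stage together. In RFP+ cells 7 of 9 members tested were called (background 42.6% of 11147 genes), all higher in vitro, where 22.5% of genes were called in that direction. Foxa2, however, passed the filter through spheroid wells. Foxc1, Foxp2 and Foxo1, with 8, 7 and 4 reads in embryonic well G12, also needed spheroid wells to pass. Nothing is read from the 7 of 9 or from their shared direction. Foxc1 rose most among the mesodermal members, by a log2 of 2.20 (SE 0.31, edgeR's adjusted p = 3.28e-08), followed by Foxp2 at 1.93 (SE 0.30), Foxh1 at 1.28 (SE 0.33), Foxo1 at 0.95 (SE 0.33), Foxc2 at 0.95 (SE 0.24) and Foxp1 at 0.66 (SE 0.17). Foxa2 went from 2 reads over the 4 embryonic libraries to a mean of 9.08 ± 6.62 CPM (SD, n = 46; edgeR's adjusted p = 0.000318). Foxd1 (0.70, SE 0.46) and Foxp4 (-0.44, SE 0.48) did not pass, at edgeR's adjusted p of 0.242 and 0.509. The call of Foxo1 was lost without G11 or G12 (adjusted p = 0.124 and 0.169).

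In GFP+ cells 4 of 6 members tested were called (background 68.0% of 11822 genes), 2 in each direction, where 48.3% of genes were called higher and 19.7% lower in vitro. Foxo1 and Foxa2, the 2 called higher, had no embryonic GFP+ read and passed the filter through spheroid wells. Nothing is read from the 4 of 6 or from its split. All genes tested had a median of 0.67 (log2) here, and 0.22 with DESeq2's size factors, so values are also given relative to it. Foxo1 went from no read in 5 embryonic libraries to 41.5 ± 15.6 CPM (SD, n = 38), at least 16.1-fold higher (edgeR's adjusted p = 9.44e-17). Foxa2 was called higher too (adjusted p = 0.0253), although its spheroid GFP+ mean of 2.28 CPM lies under the embryonic floor of 2.58 CPM. Foxh1 fell by 1.45 on the log2 scale (SE 0.23), or -2.12 relative to the median, and Foxp1 fell by 1.00 (SE 0.20), or -1.66 relative to the median. Foxc1 (0.49, SE 0.73) and Foxp2 (0.03, SE 0.60) did not pass. Both rest on well B12, without which their log2 fold changes were 7.01 (adjusted p = 2.92e-05) and 5.97 (adjusted p = 4.17e-08), and Foxp2 turned negative at -0.28 with DESeq2's size factors.

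Set side by side, the order of groups differed between members. For Foxc1, Foxc2 and Foxp2 the spheroid RFP+ cells were highest, at 42.8 ± 13.7, 38.5 ± 9.54 and 50.8 ± 15.6 CPM (SD, n = 46), above embryonic RFP+ cells at 9.09 ± 2.40, 19.8 ± 8.40 and 13.1 ± 9.76 CPM (n = 4). For Foxp1 the order was spheroid RFP+ at 155 ± 30.6, embryonic GFP+ at 145 ± 91.5, embryonic RFP+ at 97.5 ± 37.4 and spheroid GFP+ at 63.4 ± 17.8 CPM, and embryonic GFP+ wells spread so widely that the other 3 means lie within 1 SD of theirs. Foxh1 ran from embryonic GFP+ at 152 ± 72.7 over spheroid RFP+ at 63.5 ± 23.3 and spheroid GFP+ at 48.3 ± 17.7 to embryonic RFP+ at 25.9 ± 20.5 CPM. Foxo1 was at 49.2 ± 17.9 and 41.5 ± 15.6 CPM in the spheroid groups, which were not called different by the edgeR test, and at 24.9 ± 21.1 CPM in embryonic RFP+ cells.

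To compare members with each other, CPM were divided by the length of their annotated exons in kb. This length joins the exons of all annotated transcripts, 1.365 kb for Foxh1 and 13.751 kb for Foxp1, and the order depends on it. Foxh1 counts cannot be told apart from Kifc2 reads that fall within the gene, as given above. Foxh1 led in every group, with 111 ± 53.3 CPM per kb (SD, n = 5) in embryonic GFP+, 19.0 ± 15.1 (n = 4) in embryonic RFP+, 35.4 ± 13 (n = 38) in spheroid GFP+ and 46.5 ± 17.1 (n = 46) in spheroid RFP+ cells. That was 89.6%, 44.7%, 71.7% and 48.8% of the summed level per length of the 10 members. In RFP+ cells of both sources Foxc2 came second, at 7.28 ± 3.08 CPM per kb in embryos and 14.1 ± 3.50 in spheroids, followed by Foxp1 at 7.09 ± 2.72 and 11.3 ± 2.22. The Foxp1 mean lay within 1 SD of Foxc2 in both sources. In GFP+ cells Foxp1 was second in embryos at 10.54 ± 6.65 and Foxo1 in spheroids at 4.79 ± 1.80, with Foxp1 within 1 SD of it at 4.61 ± 1.30. Foxc2 was ninth of the 10 in spheroid GFP+ cells, at 0.275 ± 0.733 CPM per kb.

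**Figure D4:**
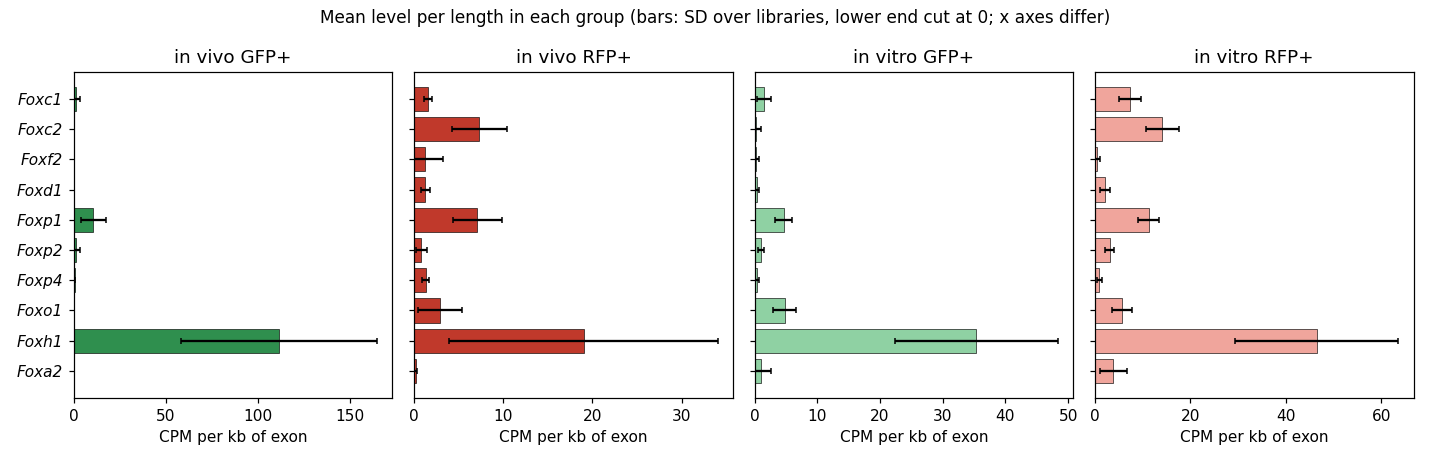
Mean level of each member per kb of exon in the 4 groups, with SD over libraries (n = 5, 4, 38 and 46; lower ends stop at 0, and the x axes differ). Foxh1 has the longest bar in every group, and Foxc2 is second in both RFP+ groups while its bar is missing or near 0 in the GFP+ groups.

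Within a spheroid population the members varied from well to well by more than counting error. The SD over in vitro RFP+ wells was 3.39 times the SD that counting alone would give for Foxh1, 2.95 times for Foxo1, 2.85 times for Foxp1, 2.43 times for Foxc1, 1.78 times for Foxc2 and 1.41 times for Foxp4. This ratio grows with the number of reads and does not rank members by steadiness. In GFP+ wells without C9 the excess was largest for Foxa2, at 3.42 times.

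The members did not vary together from well to well. Over the 28 pairs of the 8 members tested in vitro, r of log2 CPM ran from -0.37 to 0.52 (median 0.04) in GFP+ wells without C9 and from -0.44 to 0.41 (median 0.06) in RFP+ wells. The highest was Foxp1 with Foxa2 in GFP+ wells (0.52, and 0.24 in RFP+ wells), and the lowest Foxc1 with Foxh1 in RFP+ wells (-0.44, and 0.15 in GFP+ wells). Foxc1 and Foxc2 had r = 0.11 and -0.05. With C9 included, 5 pairs in GFP+ wells exceeded 0.5, among them Foxp1 with Foxh1 at 0.89, which was 0.37 without that single well.

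**Figure D5:**
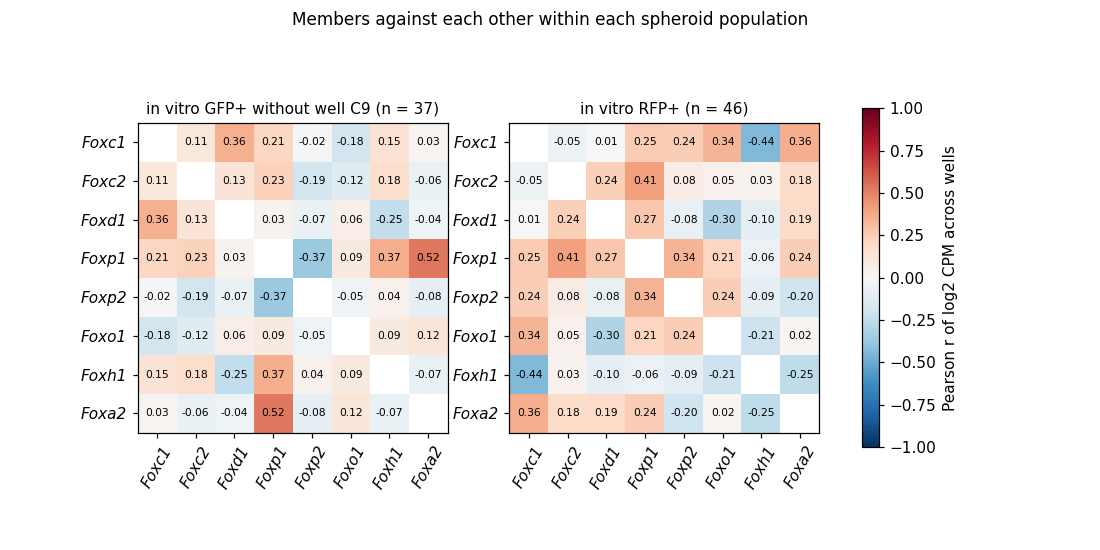
Pearson r of log2 CPM between the 8 members tested in vitro, across 37 GFP+ wells without C9 (left) and 46 RFP+ wells (right), blue below and red above 0. Most cells are pale, with the extremes at 0.52 (Foxp1 and Foxa2) and -0.44 (Foxc1 and Foxh1).

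Across all 84 spheroid libraries, where r mostly follows the difference between populations, the 3 genes most like each member were named by the rule given in the methods. Those of Foxc2 were Foxd2os (r = 0.96), Six2 (0.96) and Dupd1 (0.95), and within GFP+ and RFP+ wells these were 0.24 and 0.16, 0.19 and 0.34, and 0.14 and 0.15. Foxc2 in turn was the gene most like Foxd1 (0.79, and 0.14 and 0.24 within populations), ahead of Scd2 and Foxd2os (0.78 each). Foxc1 was most like Prdx2, Hnrnpu (0.87 each) and Fstl1 (0.86). For Foxp2 these were Ptn, Lmo4 and Sox9 (all 0.84), for Foxa2 Emb (0.74), Samd3 (0.74) and Kitl (0.71), and for Foxp1 Snrnp25, Ppa1 and Nrep (all 0.94, and 0.87 over 83 libraries without C9). For Foxo1 the likeness to Cad (0.80), Zfp638 and Eif3l (0.77 each) rested on well C9, without which it was 0.42, 0.28 and 0.26. Those of Foxh1 were Kifc2 (0.87, and 0.74 without C9), Nme4 (0.79, and 0.48) and Psmb5 (0.77, and 0.41).

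Genes of the settings in which members act were read from lists. Of 18 pharyngeal and paraxial mesoderm genes, the setting of Foxc1 and Foxc2, 13 were tested in vivo. Of these, 4 were called, all higher in RFP+ cells, as were 6.21% of all genes. The list median was 2.72 beside 0.09 for all genes. Of the 13, 3 had no read in GFP+ cells, and with these at the bound set by the floor the median was also 2.72. In vitro 10 of 14 were called higher and 3 lower in RFP+ cells (median 1.91 beside -0.02), where 37.8% and 40.1% of all genes were. Of the 4 most abundant, the mesenchymal factor Twist1 was higher (log2 1.69, SE 0.11), Prrx1 (-1.12, SE 0.12) and the heart progenitor factor Isl1 (-1.40, SE 0.12) were lower, and Eya1 (0.07, SE 0.11) did not pass. In vivo none of these 4 passed. Within populations the r of the summed list with Foxc1 was 0.41 over 37 GFP+ and 0.40 over 46 RFP+ wells, and with Foxc2 0.23 and 0.28.

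Of 15 genes of the Nodal and Smad pathway, in which Foxh1 acts, 6 were tested in vivo and 0 were called by edgeR, with a median of 0.27. Nodal, Lefty1, Gdf1, Gdf3, Gsc and Eomes had no read in either embryonic population, and Mixl1 none in GFP+ cells, where Foxh1 was highest. In vitro 2 of 7 were called higher and 3 lower in RFP+ cells (median 0.15), where 37.8% and 40.1% of all genes were. The receptor Acvr2b was higher (0.95, SE 0.06), Smad3 was higher (0.36, SE 0.10), and Smad2 (-0.42, SE 0.07) and Smad4 (-0.23, SE 0.06) were lower. The r of Foxh1 with the summed list was 0.17 and 0.12, and with summed pluripotency markers 0.03 and 0.13, in GFP+ and RFP+ wells. Pluripotency markers had reads of 6 of 6 genes in spheroids, summed to 43.5 to 1569 CPM in GFP+ and 7.03 to 571 CPM in RFP+ libraries, and to at most 0.436 and 8.10 CPM in embryonic GFP+ and RFP+ cells, with Pou5f1 and Zfp42 at 0 in both.

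Of 15 known targets of Foxo factors, 8 were tested in vivo and 0 called by edgeR (median -0.78). In vitro 4 of 13 were called higher and 6 lower in RFP+ cells (median -0.17), where 37.8% and 40.1% of all genes were. Txnip, a regulator of thioredoxin, was higher (1.38, SE 0.13), catalase (Cat, -0.45, SE 0.05) and the cell death gene Bcl2l11 (-0.45, SE 0.10) were lower, and Sod2 (0.04, SE 0.05) did not pass. The summed level of the list ran from 321 to 719 CPM in embryonic GFP+ cells, where Foxo1 had no read, and from 337 to 506 CPM in embryonic RFP+ cells. Its r with Foxo1 was -0.09 in GFP+ wells and -0.09 in RFP+ wells.

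Of the 34 other forkhead genes of the table, 8 were tested in vitro and all 8 were called, where 77.9% of all genes were. The 8 split into 6 higher in GFP+ cells, as were 40.1% of all genes, and 2 in RFP+ cells, as were 37.8%. Their median log2 fold change was -0.67, beside -0.02 for all genes and 1.74 for the 8 members tested. Those members include Foxc1, Foxc2, Foxd1 and Foxa2, which passed the filter through RFP+ wells, so nothing is read from the 2 medians. Foxo3, a paralogue of Foxo1, had -2.44 (SE 0.25) and the checkpoint factor Foxn3 -1.08 (SE 0.06). Foxj2 (-0.87, SE 0.17), Foxj3 (-0.80, SE 0.10), Foxk1 (-0.54, SE 0.17) and Foxn2 (-0.38, SE 0.10) were lower in RFP+ cells too. The cell cycle factor Foxm1 (1.01, SE 0.13) and Foxk2 (0.57, SE 0.09) were higher. In vivo 7 were tested and 0 called by edgeR, and 25 of the 34 had no read in any GFP+ library, against 15 in the RFP+ group.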

How the data were processed

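RNA of 10 sorted cells per well was sequenced in 93 libraries after reverse transcription from polyadenylated RNA, template switching, amplification and Tn5 tagmentation. Per the study's methods and processing notes, the authors used Trimmomatic 0.36 for trimming (quality of at least 35, length of at least 36), HISAT2 2.0.4 for alignment to mm10 and featureCounts 1.5.2 of Subread for counting. The deposited values are counts per gene symbol without normalization. The annotation, strand setting and treatment of reads with several positions are not given in the sources used here, and reads carry no molecular identifiers.

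Counts were fitted in R 4.3.3 with edgeR 4.0.16 (TMM, filterByExpr with minimum count 10, minimum total 15 and minimum proportion 0.7, glmQLFTest), over the 2 groups of each comparison, with Benjamini-Hochberg adjustment over all genes tested. The difference between sources was tested on the separate fold changes and their standard errors. DESeq2 1.42.0 was an alternative. Single members were tested on log2 CPM (prior count 2). The fits were tested on simulated data. Python 3.11.15 was used for the rest. Groups were taken from sample titles. Positions and exon lengths come from GENCODE M21, where 96.79% of the symbols were found.

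All 10 members are named whatever their values, as are other forkhead genes called in a population comparison, up to 4 of the most abundant genes of each list and the 3 genes with the highest r for each member tested in vitro. The members and lists were chosen with earlier results of these data known. Alternatives were other size factors, filters, thresholds, tests, near-identical wells summed and libraries left out. Values without well C9, without column 4 of the paired rows, of neighbouring genes and of a list median with unread genes at their bound were added after seeing the data. The genes called in embryos from the paraxial list are not reported here by name.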

Additional observations from a re-analysis of the deposited data

Results flagged for a closer look

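Within the embryonic groups, 4 of 15 member and group combinations held 1 library set apart by Dixon's ratio of its gap to the group's range, where chance flags about 1 in 20 for values without ties. With many values at 0 that rate does not hold, and a gene read in 1 library alone has a ratio of 1.00 by construction. Foxc1 (ratio 1.00) and Foxp2 (ratio 0.987) both stood apart in GFP+ well B12, at 31.4 and 82.3 CPM. Foxc2 was low in RFP+ well F12 (ratio 0.831, 7.37 CPM), and Foxf2 was high in RFP+ well H11 (ratio 0.860, 10.1 CPM). Without B12, Foxc1 had no read in any embryonic GFP+ library.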

How the results depend on the processing

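The count of members called in embryos was 2 of 3, and became 1 at an adjusted p of 0.05, 4 of 7 with DESeq2 and 4 of 10 with no filter, where Foxc2, Foxd1, Foxo1 and Foxh1 passed. Leaving out 1 embryonic library gave 0 to 2, with 0 without G11, and 1 without B12, D12, E12, F12 or H11. Without B12, D12, G11 or H11, Foxc2 did not pass the filter. Between spheroid and embryonic GFP+ cells, no filter gave 7 of 10 in place of 4 of 6. The test of the difference between sources called 0 members, 0 to 1 when an embryonic library was left out (1 without C12 or G12), and 6 with the interaction in 1 fit. Counts for the spheroid populations and for RFP+ cells between sources stayed within 1.5 times in all alternatives run. Foxp2 between GFP+ sources, not called, turned from 0.03 to -0.28 with DESeq2 size factors and to -0.31, -0.29, -0.23 and -0.29 without A12, C12, D12 and E12, and to 5.97 (called) without B12, where its reads lie. Over all genes, 858 were called in embryos against 1936 with DESeq2 and 2000 with no filter, 7747 in spheroids against 13109 with no filter, and 430 for the difference against 6889 with the interaction and 72 to 556 without 1 library. Of 311 single log2 fold changes under alternatives, 293 kept direction and side of the threshold, and mean CPM by total counts stayed within 1 SD in 40 of 40 cases. Depth limits Foxf2, Foxp4 and embryonic Foxa2, which rest on few reads. No paired analysis was possible because the labels give well positions and no replicate numbers. With plate row as a covariate, 7 of 8 members were called in spheroids.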
